A study of Mus musculus with 13 samples.

Results

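Among the cells of mouse thymus and spleen profiled with the Parse whole-transcriptome kit (Parse WT), 411 barcodes carried the transcripts of tissue macrophages and few transcripts of lymphocytes. Parse is a single-cell RNA-sequencing method in which fixed cells are barcoded in rounds by pooling and splitting over wells, and transcripts are counted as unique molecular identifiers (UMIs). A cell was called a member when it came from a first-round well outside the 8 wells of the benchmark thymus samples, held 500 to 25000 UMIs, and had at least 3 UMIs from at least 2 of the 6 marker genes *Vcam1*, *Adgre1*, *Slc40a1*, *Hmox1*, *Spic* and *Axl*. It also had at most 1 UMI summed over the B cell genes *Bank1*, *Ebf1* and *Pax5* and at most 1 summed over the T cell genes *Themis*, *Skap1* and *Bcl11b*. The members were 411 of 85092 cells within the UMI limits, of 86786 cells in the 16 tissue samples outside the benchmark wells, and of 128624 cells in the Parse WT matrix. Since these 12 genes chose the members, their levels are given as a description, and no test was made of members against the other cells.

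The labels describe the whole library as thymus and spleen of young and adult mice, kept as controls or under chronic stress, 20 samples in all. They do not say which tissue, age or treatment each of the 16 samples had, and the study calls these 16 non-thymic. The samples are called here by the names in the deposited cell table, 5 named CVS_C, 6 named CVS_S and 5 named YD_C, and the name sets were not compared as groups. The other 4 samples, in the 8 left-out wells, were thymic lobes of 2 female C57BL/6N mice aged 2 months. The pooled cells were split into 9 sublibraries, which are technical repeats.

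Tissue macrophages engulf dying cells and debris. In the red pulp of the spleen they take up aged erythrocytes, break down heme with heme oxygenase 1 (*Hmox1*) and export the iron through ferroportin (*Slc40a1*), and the transcription factor Spi-C (*Spic*) is needed for their development. *Vcam1* encodes an adhesion molecule of these cells and of endothelium and stroma, *Adgre1* the F4/80 antigen, and *Axl* a receptor tyrosine kinase that binds dying cells through Gas6.

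Members had a median of 2404 UMIs per cell, from 679 to 23376, and the remaining cells of the same wells had a median of 2887. In 10 of the 16 samples the members were shallower than the other cells. The 3 ribosomal RNA genes *Rn18s-rs5*, *mt-Rnr1* and *mt-Rnr2* took 25.0% of the members' UMIs and 22.5% of those of the remaining cells. They were left out of the totals used for levels and ratios below, and the members then held 1047262 UMIs. Depths per cell and per sample include them, and the depth per tissue sample was 5274969 to 53085366 UMIs. The 3-well barcode of 92 of the 411 members occurred in a cell of another sublibrary, as it did for 22381 of the 85092 cells, and no member shared it with another member.

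The members were 0.483% of cells, with an exact 95% interval of 0.438 to 0.532% that covers counting error only. Each sample gave 12 to 43 of them, with a median of 25.5, and none of the 40 wells lacked a member. Over the 9 sublibraries the share was 0.546% ± 0.203 (SD, n = 9). Sublibrary 9 held 5 members among 463 cells, and over sublibraries 1 to 8 the share was 0.480% ± 0.0366 (SD, n = 8). Among the samples the share ran from 0.153% in CVS_C_5 through a median of 0.499% to 1.08% in CVS_S_5, a range of 7.02-fold. The highest well of a sample exceeded its lowest by 1.06-fold to 3.27-fold, with a median of 1.51-fold.

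The order of the samples changed with the depth at which the gate was applied. The 4 samples with a share near 1%, CVS_C_1, CVS_S_4, CVS_S_5 and CVS_S_6, had median depths of 1524 to 1963 UMIs in their remaining cells, and the 2 samples with the lowest share, CVS_C_3 and CVS_C_5, had 7179.5 and 5601. Depth did not order the samples throughout. CVS_C_4 had a share of 0.399% at 1761.5 UMIs and CVS_S_3 0.300% at 2656. The deeper samples YD_C_2, at 3618 UMIs, and CVS_S_2, at 3203, had 0.538% and 0.520%. When each cell was thinned to 1000 UMIs before the gate, the share was 0.723%, from 0.126% in CVS_C_3 to 1.11% in CVS_S_6, with a median of 0.772%. The 5 YD_C samples, at 0.311 to 0.538% as deposited, were at 0.917 to 1.05% after thinning, and CVS_C_3 was low in both. Of the 552 cells that met the gate after thinning, 211 were members as deposited. The others had met the marker condition as deposited and exceeded a lymphoid limit, since thinning only removes UMIs. They passed because lymphoid UMIs were lost, so the thinned share is not the share of the members at equal depth. The YD_C samples held 73 to 204 barcodes each that a lymphoid limit excluded as deposited. 8694 cells with fewer UMIs could not be thinned and were left out.

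**Figure D1:**
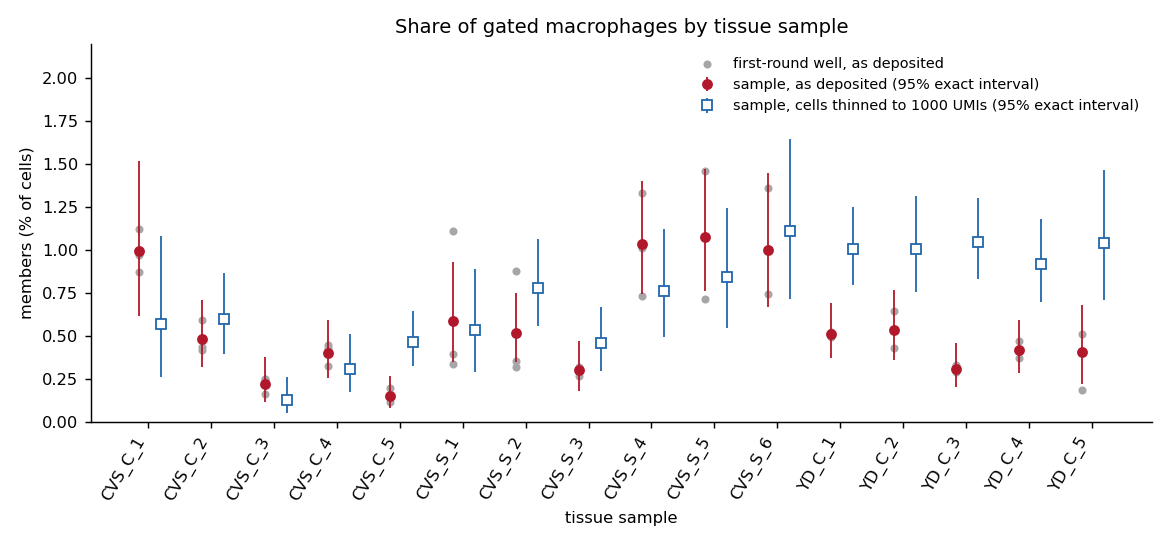
Share of members among the cells of each of the 16 tissue samples (y axis, percent of cells). Filled circles are the samples as deposited and open squares the same samples with each cell thinned to 1000 UMIs, with exact 95% intervals for counting error, and grey points are first-round wells. The YD_C samples lie at 0.311 to 0.538% as deposited and at 0.917 to 1.05% after thinning. The thinned shares include cells that exceeded a lymphoid limit as deposited.

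Every marker gene of the gate contributed. *Vcam1* had a UMI in 71.3% of members, *Axl* in 69.6%, *Slc40a1* in 60.6%, *Spic* in 48.2%, *Adgre1* in 46.0% and *Hmox1* in 41.4%, against 1.35 to 3.89% of the remaining cells. Exactly 2 of the 6 genes were seen in 144 members, 3 in 94, 4 in 79, 5 in 65 and all 6 in 29. The full set of 6 was the most frequent combination, followed by *Vcam1*, *Slc40a1* and *Axl* together in 25 members. Levels are given in UMIs per 1000000 UMIs outside ribosomal RNA (CPM). *Slc40a1* (chr1:45908068-45926523, minus strand, GRCm38) ran from 234 through a median of 787 to 2077 CPM in the members of the 16 samples and from 12.3 to 68.6 CPM in their remaining cells. *Vcam1* (chr3:116109949-116129688, minus strand) ran from 107 through 1089 to 2472 CPM and from 8.26 to 66.4 CPM. *Spic* ran from 17.9 through 391 to 677 CPM and from 3.80 to 17.6 CPM. In each of the 3 genes the lowest sample of the members lay above the highest of the remaining cells, which the gate brings about.

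The label was checked against 19 genes of red pulp macrophages that the gate did not use. At least 3 UMIs from at least 2 of them were found in 361 members, 87.8% (exact 95% interval 84.3 to 90.8%), and in 3.01% of the remaining cells. Of the 19 genes, 4 had expected UMIs of at least 20, a minimum explained below, and these 4 were at least 2-fold higher, as were 8.44% of all genes at that minimum. Another 13 were also higher and reached the count used below through the members. The summed level of the list was 7464 CPM in members and 259 CPM in the remaining cells. A UMI of *Csf1r*, *Mertk*, *Cd163* or *Mrc1* was present in 90.8% of members (373 of 411) and in 7.73% of the remaining cells, and in 78.7% and 3.73% when cells were thinned to 1000 UMIs, which left out 44 members and 8650 other cells. The data bear out the name for most members and not for all: 20 members had no UMI of the list. In CVS_C_3 6 of 13 members passed, the list stood at 1307 CPM, and the members of the other 15 samples together were at 7811 CPM. The next lowest samples were YD_C_3 with 3033 and CVS_C_5 with 3258 CPM, and the highest was CVS_S_5 with 15199 CPM.

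Signs of other cell types were measured with 14 further marker lists. T cell, natural killer cell, megakaryocyte and thymic epithelial profiles, each again 3 UMIs from 2 genes, were found in 0 of 411 members, which allows a share of up to 0.730% (3 cells of 411), or 0.894% by the exact 95% interval. For the T cell profile the limit on T cell UMIs in the gate sets this absence. A monocyte profile was found in 67 members, 16.3% against 9.41% of the remaining cells, and 53 of them also had the red pulp profile. An erythroid profile was found in 31 members, 7.54% against 5.46%, and 11 of them lacked the red pulp profile. A conventional dendritic profile was found in 33 (8.03% against 7.12%), a neutrophil profile in 23 (5.6% against 4.78%), a marginal zone macrophage profile in 23 (5.6% against 0.312%) and a plasmacytoid dendritic profile in 26 (6.33% against 12.7%). A plasma cell profile was found in 6 and a B cell profile in 3, and *Ighm* had 144 of its 183 UMIs in 1 cell of CVS_C_2, without which sample its ratio was 0.0381 in place of 0.183. In 277 members, 67.4%, the red pulp profile was present and the erythroid, monocyte, neutrophil and conventional dendritic profiles were absent.

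*Vcam1* and *Axl* are also made by stromal and endothelial cells, so those lists were read together. A stromal or endothelial profile was found in 63 members, 15.3%, of which 59 also had the red pulp profile. In the remaining cells the pooled lists gave 24.9%, a share that also takes in cells with UMIs split over both lists. The stromal list holds *Cr2*, at a ratio of 0.0621 in members, and the endothelial list *Pecam1*. The pooled share is therefore no measure of stromal or endothelial cells alone. The endothelial list alone went the other way, with a profile in 13.1% of members against 2.35% of the remaining cells, and the stromal list alone gave 0.730% and 0.474%. The defining endothelial genes *Plvap* and *Emcn* were at 0 in members, *Cdh5* had 2 UMIs and *Kdr* 7, and the profile came mainly from *Pecam1* with 419 UMIs, at 400 CPM in members and 576 in the remaining cells, a ratio of 0.776, and from *Stab2*, a scavenger receptor of sinusoidal endothelium, with 205. *Stab2* was at 15.0-fold, or 31.7-fold without marker-positive barcodes among the remaining cells, and spread over 116 members, and *Flt1*, a VEGF receptor, was at 6.42-fold with 39 UMIs. Of the stromal genes *Dcn*, *Ccl19* and *Mgp* were at 0, and *Lama2* had 107 of its 128 UMIs in 1 cell, in YD_C_3. The 71.6-fold ratio of *Lama2* was 13-fold without that sample.

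The levels near the limits of the gate show where members and other cells pass into each other. The 65 members with exactly 3 marker UMIs had 1967 CPM of the red pulp list, and the 105 cells just outside, with 2 UMIs from 2 genes, had 1576 CPM.
By summed marker UMIs, the 127 members with 3 to 4 had 2468 CPM of that list, the 142 with 5 to 9 had 7729 CPM, and the 142 with 10 or more had 12428 CPM. The monocyte list was low only in the last of these classes, at 1481, 1522 and 137 CPM, as was the erythroid list at 3453, 4180 and 516 CPM and a list of 20 cell cycle genes at 2138, 1725 and 247 CPM. Their part in the values of the whole set was not tested, and in the 341 members with a red pulp and no erythroid profile the cell cycle list stood at 142 CPM and the red pulp list at 9494 CPM.

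A far larger number of barcodes met the marker condition and failed a lymphoid limit. These were 1102 of the 1513 that met it, 751 by the B cell genes, 57 by the T cell genes and 294 by both, and their median depth was 5964.5 UMIs. They carried 48.2 red pulp list UMIs per cell against 19.0 in members, at 7874 CPM, a level close to that of members. Their B cell list stood at 2105 CPM, between 273 in members and 4153 in cells without the marker condition. No doublet caller was run, and whether these barcodes are macrophages with lymphocyte RNA or pairs of cells was not tested. They count among the remaining cells here, and they lower the ratios of members to remaining cells of macrophage genes. Ratios without them are given for the genes named below that moved by more than 1.5 times.

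**Figure D2:**
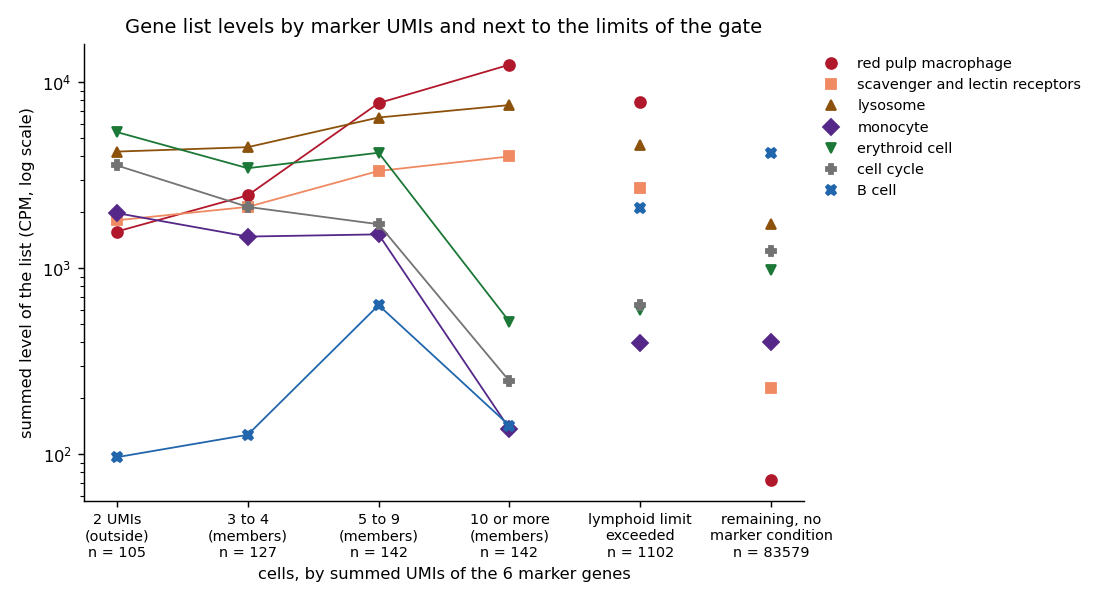
Summed level of 7 gene lists (y axis, CPM, log scale) by summed UMIs of the 6 marker genes in cells outside and inside the gate (x axis, number of cells under each name). The red pulp list goes from 1576 CPM in cells just outside to 12428 CPM in members with 10 or more marker UMIs, while the erythroid, monocyte and cell cycle lists are lowest there.

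For each gene, the UMIs observed in members were divided by those expected if the members of each sample had the level of its remaining cells. Of 7286 genes with observed plus expected UMIs of at least 40, gate genes left out, 1018 were at least 2-fold higher (14.0%) and 828 at most 0.5-fold (11.4%). The median ratio was 0.876. A gene that is rare in the remaining cells passes this minimum only through the members. It is then above its expected UMIs by construction, and at least 2-fold higher where the expected UMIs are lowest. Among the 6721 of these genes with expected UMIs of at least 20, 567 were higher (8.44%). In 171 genes (2.35%) the members of every sample were above the remaining cells of every sample, and in 147 (2.02%) they were below. At least 4-fold higher were 486 genes (6.67%) and at least 10-fold 203 (2.79%).

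The 20 genes of highest ratio with at least 200 observed UMIs, higher in every sample with 20 members, held 4 genes of the gate, *Vcam1*, *Hmox1*, *Spic* and *Axl*, which chose the members. They also included the mannose receptor *Mrc1*, the efferocytosis receptor *Mertk*, the integrin chains *Itgad* and *Itga9*, the complement genes *C1qa* and *C6*, and *Fcna*, a ficolin that binds microbial sugars. *Fcna* (chr2:25624666-25628030, minus strand) had the largest ratio among the 20, 39.0-fold (95% Poisson interval 33.8 to 44.8, counting error only), from 35.1 through 191 to 595 CPM in the samples' members and from 0.750 to 12.4 CPM in the remaining cells. *Mrc1* (chr2:14229392-14332057, plus strand) ran from 143 through 1061 to 5857 CPM against 9.44 to 89.6 CPM, a ratio of 31.4. *Itgad* (chr7:128154376-128223816, plus strand), the alpha D chain of a beta 2 integrin, ran from 125 through 2096 to 4281 CPM against 12.3 to 106 CPM, a ratio of 32.0. *Mertk* ran from 71.6 through 1591 to 2857 CPM against 9.79 to 87.0 CPM, a ratio of 29.2. The groups did not overlap in *Fcna*, *Mrc1* and *Itgad*, and overlapped in *Mertk* through CVS_C_3 alone, the lowest sample. The other names in the 20 included transporters and membrane proteins with less familiar places in macrophages: the organic anion transporter *Slco2b1* at 31.1-fold, the glutamate transporter *Slc1a3* at 30.6-fold, the semaphorin *Sema6d* at 29.0-fold, the calcium channel subunit *Cacna1a* at 27.9-fold, the efflux pump *Abcc3* at 27.2-fold, the phosphatase *Ptprm* at 27.2-fold and the glycosyltransferase *Galnt3* at 26.7-fold. *Gm13710*, an unnamed gene model, stood at 36.1-fold.

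Without the 1102 excluded barcodes among the remaining cells, these ratios were larger by far. *Fcna* went from 39.0 to 265, *Itgad* from 32.0 to 230, *Slco2b1* from 31.1 to 245, *Mrc1* from 31.4 to 139 and *Mertk* from 29.2 to 132. *Gm13710* then stood at 269, *C6* at 259, *Itga9* at 188, *Abcc3* at 149, *Ptprm* at 126, *Sema6d* at 107, *Galnt3* at 103, *Cacna1a* at 88.5 and *Slc1a3* at 66.4. The number of genes called moved little, to 1027 higher and 847 lower.

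Of 20 complement genes, 13 were above the minimum of 40 observed plus expected UMIs, and 12 were higher and 1 lower. Of the 6 with expected UMIs of at least 20, 5 were higher. The shares higher over all genes were 14.0% and 8.44% at the same minimums. The 3 chains of C1q, the recognition molecule of the classical pathway, are encoded side by side on chromosome 4 and had ratios of 38.6 for *C1qa* (chr4:136895917-136898803), 37.8 for *C1qb* (chr4:136880129-136886187) and 41.6 for *C1qc* (chr4:136889804-136893065), all on the minus strand of GRCm38. Without the excluded barcodes the ratios were 115, 180 and 180. *C1qa* ran from 43.5 through 252 to 883 CPM in the samples' members and from 0.834 to 11.1 CPM in the remaining cells. A UMI of *C1qa* was seen in 34.8% of members, of *C1qb* in 30.7% and of *C1qc* in 25.8%, and in 0.644 to 0.955% of the remaining cells. *C6*, a component of the membrane attack complex, stood at 37.2-fold, and its highest sample at 1781 CPM lay well above its median of 245. *C4b* was at 17.3-fold and properdin, *Cfp*, at 11.8-fold. The lower gene was *Cd55*, which protects cells from complement, at 0.215.

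Shown are the promoter windows of *C1qb* and *C1qc*, neighbouring genes that both stood high, and of *Slco2b1*, among the highest transporters. They were chosen because each holds a match to a motif named below. Each runs from 250 bases before to 50 after a start site in RefSeq, build GRCm38.p6, in the direction of the gene, and *C1qa* is not shown. Capitals mark a match to the PU.1 box GAGGAAGT or to the antioxidant response element TGACNNNGC, both strands searched. These are *C1qb*, chr4:136886151-136886450, minus strand, with an antioxidant response element at position -103 (the start site being 0), *C1qc*, chr4:136892865-136893164, minus strand, with a PU.1 box at -195, and *Slco2b1*, chr7:99711291-99711590, minus strand, with a PU.1 box at 6.
C1qb: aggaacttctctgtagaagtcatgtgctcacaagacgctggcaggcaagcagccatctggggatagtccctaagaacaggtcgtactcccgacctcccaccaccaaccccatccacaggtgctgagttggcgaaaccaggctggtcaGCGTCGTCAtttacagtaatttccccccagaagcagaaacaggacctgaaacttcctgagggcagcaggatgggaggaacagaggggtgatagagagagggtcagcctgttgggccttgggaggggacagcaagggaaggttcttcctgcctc
C1qc: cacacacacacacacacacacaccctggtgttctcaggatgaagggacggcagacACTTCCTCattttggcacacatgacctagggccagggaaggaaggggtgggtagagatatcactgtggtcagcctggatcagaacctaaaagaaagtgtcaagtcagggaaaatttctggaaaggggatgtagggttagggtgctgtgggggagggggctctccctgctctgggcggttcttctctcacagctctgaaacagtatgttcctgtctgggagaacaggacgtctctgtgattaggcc
Slco2b1: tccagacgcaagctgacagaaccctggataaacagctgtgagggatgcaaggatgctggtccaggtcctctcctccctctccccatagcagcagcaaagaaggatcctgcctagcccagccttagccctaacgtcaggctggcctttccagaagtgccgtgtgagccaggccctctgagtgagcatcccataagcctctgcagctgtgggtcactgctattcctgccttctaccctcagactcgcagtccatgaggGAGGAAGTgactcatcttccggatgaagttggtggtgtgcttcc

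PU.1, the product of *Spi1*, is the factor that directs the macrophage lineage, and Nrf2, the product of *Nfe2l2*, binds antioxidant response elements, as in the *Hmox1* gene. The PU.1 box occurred in 4.76% of 1114 promoter windows of higher genes, in 3.68% of those of all counted genes and in 3.20% of all 32851 windows. The antioxidant response element occurred in 15.1%, 14.6% and 12.4%. Of 18 windows of the red pulp list, 1 held a PU.1 box and 1 an antioxidant response element, 5.56% each, and the 3 windows printed were chosen because they hold a match. *Spi1* itself was 4.17-fold higher and *Nfe2l2* 1.87-fold. A match is a description of these letters and not of a bound site.

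Of the iron and heme list, 20 of 28 genes were above the minimum, and 9 were higher, 11 neither and 0 lower. Of the 16 with expected UMIs of at least 20, 5 were higher. The shares higher over all genes were 14.0% and 8.44%. Transferrin, *Trf*, was at 16.9-fold, or 26.5-fold without the excluded barcodes, from 53.7 through 283 to 551 CPM in the samples' members against 7.70 to 27.7 CPM, with no overlap. Ferritin light chain, *Ftl1*, which stores iron, was at 6.17-fold and its partner *Fth1* at 2.85-fold. The heme transporter *Slc48a1* was at 4.83-fold, and its members' lowest sample, 17.9 CPM, lay just above the highest of the remaining cells, 17.8. Biliverdin reductase A, *Blvra*, was at 3.48-fold, the heme-responsive repressor *Bach1* at 2.11-fold and the thioredoxin reductase *Txnrd1* at 3.35-fold. The transferrin receptor *Tfrc*, at 0.993, and the iron sensor *Ireb2*, at 0.684, passed neither limit.

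Of the genes for uptake of dying cells, 15 of 22 were above the minimum, and 9 were higher and 1 lower. At expected UMIs of at least 20, 7 of 13 were higher, and over all genes 14.0% and 8.44% were. The 4 highest were *Mertk*, the phosphatidylserine receptor *Timd4* at 28.4-fold, the endocytic receptor *Lrp1* at 18.6-fold and the integrin chain *Itgb5* at 17.7-fold. *Lrp1* had a UMI in 84.7% of members and in 6.41% of the remaining cells, and ran from 698 through 1847 to 3511 CPM against 34.7 to 191 CPM. *Timd4*, at 50.4-fold without the excluded barcodes, was spread less evenly, at 0 in the members of 4 samples and up to 563 CPM in another. *Elmo1*, which links receptors to the cytoskeleton, passed neither limit at 0.656, and *Itgb3*, at 0.0839, was lower, and at 0.0350 without CVS_S_2.

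The scavenger and lectin receptor list was higher in all of its 16 genes above the minimum, with a median ratio of 10.3. Among those with expected UMIs of at least 20 it was 5 of 5. The shares higher over all genes were 14.0% and 8.44%, and the median rests in part on genes that reached the minimum through the members. The next highest after *Mrc1* were the C-type lectin *Clec4n* at 24.5-fold, the hemoglobin-haptoglobin receptor *Cd163* at 20.3-fold and *Siglec1*, the sialoadhesin of marginal metallophilic macrophages, at 19.2-fold, and without the excluded barcodes these 3 stood at 56.0, 104 and 53.8. *Cd163* was seen in 15.1% of members, from 0 through 97.0 to 487 CPM, so it marked fewer of them than *Mrc1*, seen in 65.0%. *Marco*, a receptor of marginal zone macrophages, had 17 UMIs in the 411 members and *Cd209b* had 1, both under the minimum. *Clec4a1* and *Clec4a3*, near-identical neighbours whose reads may be shared, were at 10.9-fold and 12.9-fold.

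Of 30 lysosomal genes, 27 were above the minimum, 19 of these higher, 8 neither and none lower (14.0% higher over all genes). Among those with expected UMIs of at least 20, 16 of 23 were higher (8.44% over all genes). Cathepsin B, *Ctsb*, was at 11.1-fold, from 358 through 1327 to 1858 CPM against 42.4 to 131 CPM. Legumain, *Lgmn*, was at 8.55-fold, *Cd68* at 8.09-fold and progranulin, *Grn*, at 7.17-fold, and in these 4 genes the groups did not overlap. Prosaposin, *Psap*, the most abundant of the list with 1556 UMIs, was at 5.61-fold. Subunits of the proton pump stood near the remaining cells, *Atp6v1h* at 1.02 and *Atp6v0a1* at 1.04.

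In the lipid list 17 of 22 genes were above the minimum, 10 higher and none lower (14.0% higher over all genes). At expected UMIs of at least 20, 6 of 13 were higher (8.44% over all genes). Lipoprotein lipase, *Lpl*, was at 25.5-fold, the nuclear receptors *Pparg* and *Nr1h3* (LXR alpha) at 22.6-fold and 20.6-fold, apolipoprotein E, *Apoe*, at 6.38-fold and the lipid droplet protein *Plin2* at 6.79-fold. *Pparg* ran from 17.9 CPM, in CVS_C_3, through 405 to 1108 CPM, against 6.53 to 31.5 CPM. Without the excluded barcodes *Lpl* was at 59.0-fold and *Pparg* at 56.9-fold. Both nuclear receptors also stand in the list of 26 transcription factors, in which 14 of 20 were higher (14.0% over all genes). Among those with expected UMIs of at least 20 it was 8 of 14 (8.44% over all genes). *Rxra*, the partner of both receptors, was at 13.6-fold, *Tfec* at 12.2-fold, *Maf* at 10.3-fold and *Mitf* at 10.3-fold. *Runx1*, at 0.937, was near the remaining cells, and *Bhlhe41*, at 0.0697, was the 1 lower gene. *Gata6* and *Sall1*, factors of peritoneal macrophages and microglia, were at 0.

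**Figure D3:**
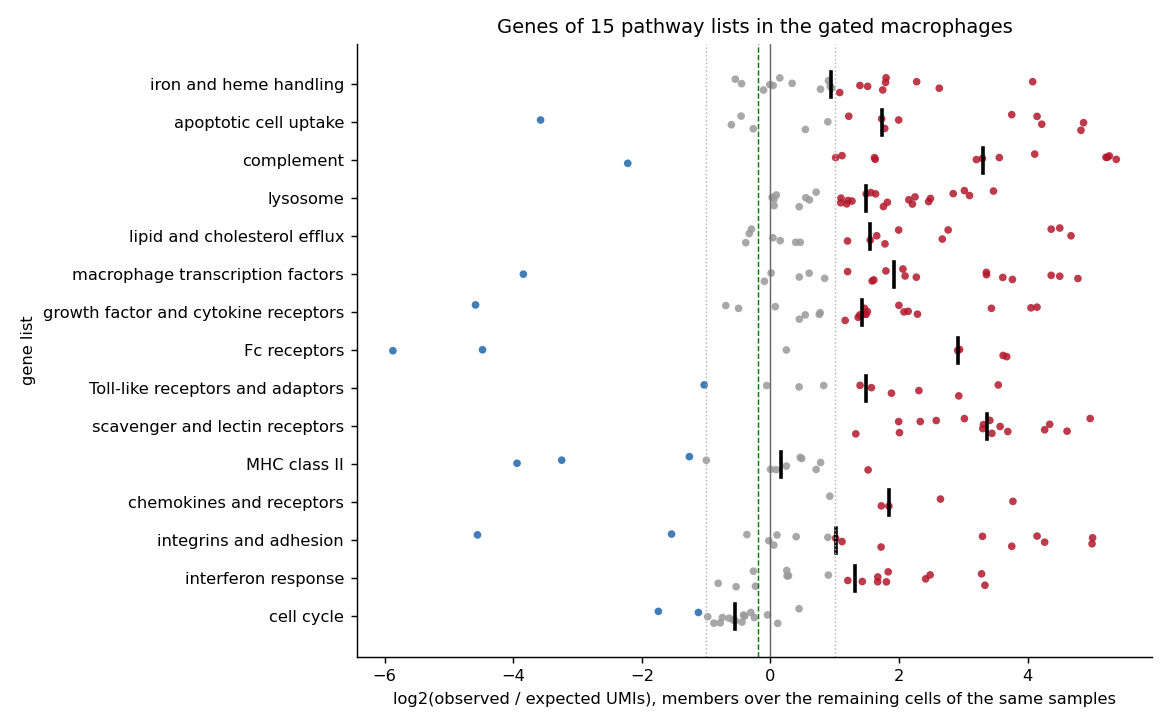
Ratio of members to the remaining cells of the same samples (x axis, log2) for the genes of 15 pathway lists (y axis), leaving out gate genes and genes under the minimum. Red points are at least 2-fold higher, blue at most 0.5-fold, black bars are list medians and the dashed line is the median of all 7286 genes (0.876). All 16 scavenger and lectin receptor genes are red, and no cell cycle gene is. Of these 16, 5 had expected UMIs of at least 20, as did all 17 cell cycle genes. The other scavenger genes reached the minimum through the members and are above their expected UMIs by construction.

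Among 22 growth factor and cytokine receptors 14 were higher and 1 lower (14.0% and 11.4% over all genes). At expected UMIs of at least 20, 11 of 19 were higher, where the share over all genes was 8.44%. *Csf1r*, the receptor of the growth factor that macrophages live on, was at 16.6-fold, from 358 through 721 to 1350 CPM against 22.1 to 80.8 CPM, with no overlap. *Tnfrsf11a* (RANK) was at 17.7-fold, *Il1r1* at 10.8-fold and *Csf2ra* at 4.88-fold, while *Il18r1*, at 0.0416 and at 0.0230 without CVS_S_4, was lower. Of 7 Fc receptor genes above the minimum 4 were higher and 2 lower (14.0% and 11.4% over all genes). At expected UMIs of at least 20 none of 3 was higher (8.44% over all genes), so the 4 reached the minimum through the members. *Fcgrt*, which salvages antibody, was at 12.8-fold, *Fcgr4* at 12.3-fold and *Fcgr3* at 7.68-fold, and the B cell genes *Fcmr* and *Fcer2a* were at 0.0448 and 0.0171, the last at 0.00869 without CVS_S_4. Of 10 genes of Toll-like receptors and their adaptors above the minimum, 6 were higher (14.0% over all genes). At expected UMIs of at least 20 it was 2 of 6 (8.44% over all genes). The highest were the endosomal RNA sensors *Tlr8* at 11.7-fold and *Tlr13* at 7.61-fold. *Tlr1*, at 0.489, was below the limit of 0.5 and above it when any of 10 samples was left out. Of 17 integrin and adhesion genes 9 were higher, and 7 of 15 at expected UMIs of at least 20 (14.0% and 8.44% over all genes). *Itgam*, at 2.02, was no longer higher when any of 6 samples was left out.

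Of 12 genes of MHC class II and costimulation, which serve to present antigen, 1 was higher, 3 were lower and 8 neither, where 14.0% of all genes were higher and 11.4% lower, so the count of higher genes is near the share over all genes. The higher gene was the costimulator *Cd86* at 2.86-fold. *H2-Ab1* was at 1.72-fold and *H2-Eb1* at 1.64-fold, higher in 11 and 10 of 16 samples, and *Cd74* at 1.38-fold in 9. *H2-DMb2* and *H2-Ob*, at 0.105 and 0.0651, and *Cd40*, at 0.417, were lower. The remaining cells are mostly lymphocytes: 60.4% of them had a B cell profile and 26.1% a T cell profile.

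Few chemokine transcripts were found, and of 22 chemokine and receptor genes 5 were above the minimum and 4 higher (14.0% over all genes). Of the higher genes, 1 had expected UMIs of at least 20, and the others reached the minimum through the members. *Ccl2*, *Ccl3*, *Ccl4*, *Ccl7*, *Ccl12*, *Ccl17* and *Ccl22* were at 0 in the 1047262 UMIs of members, which allows up to 2.86 CPM. *Cmklr1*, the receptor of chemerin, was at 13.7-fold and *Ccl6* at 6.25-fold. Of 18 interferon-response genes above the minimum 10 were higher and none lower (14.0% higher over all genes). At expected UMIs of at least 20, 5 of 13 were higher (8.44% over all genes). *Ifi207*, whose reads may be shared with *Ifi204*, was at 10.1-fold, and *Ifi44*, at 5.59-fold, was higher in all 16 samples. *Rsad2* was at 9.73-fold, and its members were higher in 8 samples and had a median of 6.41 CPM, and it was at 0 in the other 8. None of 17 cell cycle genes was higher and 2, *Mcm2* and *Rrm2*, were lower, at 0.299 and 0.460, a count near the 11.4% of all genes that were lower. *Mcm2* was at 0.154 without YD_C_3, and *Rrm2* was above 0.5 without CVS_C_4 or CVS_S_4. *Mki67* was at 1.08, with 81.2% of its UMIs in 10 members. Without the 31 members that had an erythroid profile, *Mki67* was at 0.126 and *Nusap1* went from 1.36 to 0.125. *Cenpe* went from 0.968 to 0.154 and *Kif11* from 0.840 to 0.130, all 4 then below 0.5, and *Rsad2* was at 4.07. Cells with that profile, 5.46% of the remaining cells, stayed among them, so the fall of the cell cycle genes is set in part by this choice of cells.

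Globin ratios were above 2 over all members, came from a small number of cells and did not hold across samples. *Hba-a2* was at 4.73-fold, *Hbb-bs* at 3.29-fold, *Hbb-bt* at 2.96-fold and *Hba-a1* at 2.79-fold, and reads of the paired copies may be shared. Members were above the remaining cells in 8 or 9 of the 16 samples for each of the 4 genes. *Hbb-bs* was seen in 30 members, its 10 highest cells held 85.8% of its UMIs, and it ran from 0 through 195 to 2864 CPM in the samples' members against 8.59 to 507 CPM, with overlap. In the 142 members with 10 or more marker UMIs it stood at 137 CPM, against 141 CPM in all remaining cells. Nothing here tells RNA of engulfed erythroid cells from RNA of attached or free origin or of erythroid cells that met the gate, and this was not tested. The 31 members with an erythroid profile had 17805 CPM of the erythroid list, which chose them, 7812 of the cell cycle list and 2473 of the red pulp list. The 50 members without a red pulp profile had 6662, 4276 and 309 CPM of these lists, and the red pulp list does not bear out the name for them. Without the 31 members that had an erythroid profile, which the globin genes help to define, the 4 ratios were 0.0648, 0.0459, 0.0429 and 0.0424, a fall that this choice of cells brings about, and 1022 genes were higher and 1042 lower.

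**Figure D4:**
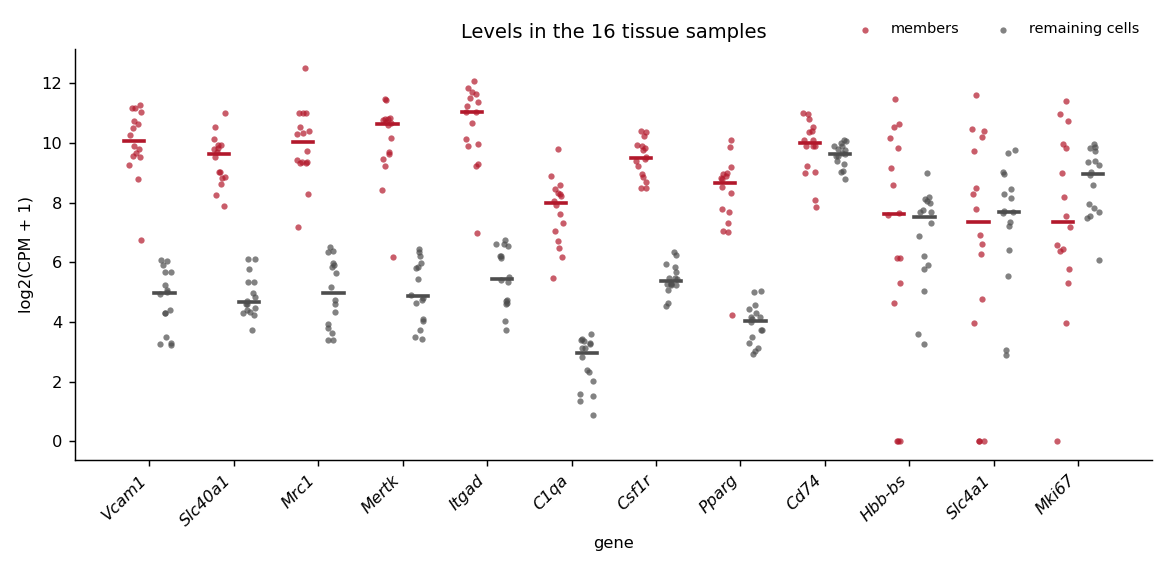
Level of 12 genes (y axis, log2 of CPM + 1) in the members and in the remaining cells of each of the 16 tissue samples, with a bar at the median. *Slc40a1*, *Mrc1*, *Itgad* and *Csf1r* do not overlap between members and remaining cells, while *Cd74*, *Hbb-bs*, *Slc4a1* and *Mki67* do.

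At the other end, the genes of lowest ratio with at least 200 expected UMIs included *Sidt1*, *Pax5*, *Ebf1* and *Chst3*. *Pax5* and *Ebf1* belong to the gate. *Chst3*, a sulfotransferase, had 4 UMIs in members against 325 expected. The ratio of *Sidt1*, 0.00880, was 0.00474 without YD_C_4. All 10 genes of the B cell list and all 8 counted genes of the T cell list were lower (11.4% over all genes), as the lymphoid limits favour.

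Cells gated in the same samples on other myeloid genes give a setting for these values. Monocyte-gated cells (782 with at least 3 UMIs from 2 of *F13a1*, *Fn1*, *Vcan* and *Cx3cr1*), dendritic-gated cells (413, by *Xcr1*, *Clec9a*, *Zbtb46* and *Itgax*) and neutrophil-gated cells (1432) met the lymphoid limits and not the marker condition. Their red pulp list levels were 881, 190 and 241 CPM, against 7464 in members. Several pathway lists stood as high in the monocyte-gated cells as in members, or higher. The growth factor and cytokine receptor list stood at 4847 CPM there and 4523 in members, the Fc receptor list at 561 and 549, the Toll-like receptor list at 1153 and 1114, the interferon list at 2265 and 1886, and the chemokine list at 917 and 453. In the neutrophil-gated cells the complement list stood at 3308 CPM, against 2396 in members, and the iron and heme list at 2522 against 2414. The MHC class II list stood at 7468 CPM in the dendritic-gated cells and 3209 in members. The scavenger and lectin list was highest in members, at 3129 CPM against 1837, 686 and 708 in the monocyte-, dendritic- and neutrophil-gated cells. *Csf1r* was at 457 CPM in the monocyte-gated cells and 754 in members, *Lrp1* at 1200 and 1776, and *Tlr8* at 65.5 and 75.4. *C1qa* was at 2.83 and 257 CPM, *Itgad* at 0.471 and 1874 and *Fcna* at 0 and 193. *Fn1* went the other way, with 2549 CPM in the monocyte-gated cells, which it helped to choose, and 179 in members, as did *Ccr2* with 421 and 84.0. *Itgax*, used in the dendritic gate, was at 891 CPM there and 344 in members. These values are set side by side with no test, since each set was chosen by measured genes.

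The same gate found 7 of 39414 cells in the 4 thymic samples (0.0178%, exact 95% interval 0.00714 to 0.0366%) and 5 of 19342 in the thymocytes processed with the smaller Parse Mini kit (0.0259%, 0.00839 to 0.0603%). All 7 and all 5 had a UMI of *Csf1r*, *Mertk*, *Cd163* or *Mrc1*, and the red pulp list stood at 4985 and 5120 CPM. In the Parse Mini cells *C1qa* had 29 UMIs and *Mertk* 47, while *Itgad*, *Mrc1* and *Slc40a1* had 0. In the thymic cells of Parse WT *Mrc1* had 26 UMIs, *Itgad* 9 and *Slc40a1* 10. Tissue, kit and mice differ between these sets, and 7 and 5 cells are too few for a comparison of levels.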

How the data were processed

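Single-cell libraries of mouse thymus and spleen made with the Parse WT kit (9 sublibraries) and of thymocytes made with the Parse Mini kit (2 sublibraries) were used; the 10x Genomics data were not used here. The authors processed each sublibrary with split-pipe against the mm10 mouse reference, which yields 1 combined cell-by-gene matrix over all sublibraries; the deposited matrices hold raw UMI counts per cell and gene, with a table giving each cell's UMI count, first-round well and tissue sample name. For split-pipe no version was given in the sources. Further columns of each cell table, 8 in number, were not used.

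The members, gene lists, gate and named genes were chosen with earlier results of these data known. The 30 gene lists (417 of 418 genes found) leave out the 12 gate genes. Expected UMIs were computed within each tissue sample from its remaining cells, and genes with observed plus expected UMIs of at least 40 were counted; 2-fold and 0.5-fold were the limits. No test was made, because the gate uses measured values and the labels put the 16 tissue samples in no group. Ranges over samples, exact binomial (Clopper-Pearson) and Poisson intervals at 95% are given, and cover counting error only; molecules of 1 cell and cells of 1 sample share their source. Named genes are the 12 of the gate, in each list the 4 largest and 2 smallest ratios, the 20 largest ratios with at least 200 observed UMIs that were higher in every sample with 20 members, and the 5 smallest with at least 200 expected UMIs; other list genes, and genes given for an absent marker, are named after their values were seen. Some genes that this rule names are not reported here. The comparison sets of monocyte-gated, dendritic-gated and neutrophil-gated cells were also added then.

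Doublets were not called. For thinning, UMIs of each cell were drawn without replacement. Gene positions come from GENCODE M21 (GRCm38), in which 52081 of 57010 gene identifiers were found, and promoter windows from RefSeq (GRCm38.p6). The functions that compute ratios were tested on simulated data. Python 3.11.15, numpy 2.4.6, scipy 1.17.1, pandas 2.3.3 and matplotlib 3.10.9 were used.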

Additional observations from a re-analysis of the deposited data

Results flagged for a closer look

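Of 5 values examined over the 9 sublibraries, 3 stood apart in sublibrary 9 by the gap to the nearest of the others, which chance does for about 1 group in 20. Sublibrary 9 had 463 cells and 5 members. Its share of members was 1.08%, its share of members with a stromal or endothelial profile 40% (2 of 5) and the red pulp list in its members 16874 CPM. Without it the share of members in all cells was 0.480%.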

How the results depend on the processing

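Leaving out each of the 16 tissue samples in turn gave a share of members of 0.456 to 0.516%, a median depth of 2296 to 2481 UMIs, a stromal or endothelial profile in 13.6 to 16.2% of members, a UMI of *Csf1r*, *Mertk*, *Cd163* or *Mrc1* in 90.1 to 91.7%, 945 to 1015 higher genes and 777 to 905 lower genes. The share moved by more than 1 SD over sublibraries 1 to 8 with 2 marker UMIs (0.606%) or 5 (0.334%), without *Axl* (0.384%) or *Vcam1* (0.398%), with no lymphoid UMI allowed (0.236%), with cells thinned to 1000 UMIs (0.723%) and without the lymphoid limits (1.78%). The last setting also moved the median depth to 4682 UMIs and the stromal or endothelial profile to 50.8%, which was 20.8% with 5 marker UMIs and 8.70% after thinning. The share with *Csf1r*, *Mertk*, *Cd163* or *Mrc1* was 85.5% with 2 marker UMIs, 95.4% with 5 and, among the 552 cells that met the gate after thinning, counted in the thinned UMIs, 97.1%. Higher and lower genes numbered 1696 and 1627 at a minimum of 10 UMIs, 354 and 274 at 200, 486 and 306 at 4-fold, and 471 and 514 when the direction had to hold in every sample with 20 members, and 567 higher genes remained with expected UMIs of at least 20. With the first-round well as stratum 1016 of the 1018 higher genes were called. Leaving out the 31 members with an erythroid profile, chosen by a list that holds the globin genes while such cells stay among the remaining cells, lowers globin ratios by construction, and took *Hba-a2* from 4.73 to 0.0648, *Hbb-bs* from 3.29 to 0.0459, *Hbb-bt* from 2.96 to 0.0429 and *Hba-a1* from 2.79 to 0.0424. None of the 156 named genes turned with 5 marker UMIs, with the well as stratum or without the marker-positive barcodes. With 5 marker UMIs 77 of them left their counting interval, and without the marker-positive barcodes among the remaining cells 46 did. Leaving out YD_C_2 took *Ltf* from 0.361 to 0.0434 and *Ngp* from 0.482 to 0.0723. The gate without lymphoid limits, the remaining cells without marker-positive barcodes, the erythroid and red pulp subsets, the minimum on expected UMIs and the share without sublibrary 9 were chosen after seeing the data. The causes of these shifts were not tested. No paired analysis was possible because the results come from no test and the labels do not explain the numbered names of the 16 tissue samples. Members and remaining cells were set side by side within each sample. *Marco* and *Cd209b* had few counts in members, and the chemokine genes named above were at 0 there. Whether depth accounts for this was not tested.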

Other observations

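The neutrophil list of members was highest in YD_C_2, where it stood at 2603 CPM in 30 members, of which 4 had a neutrophil profile. The erythroid list was highest in CVS_C_5 at 12718 CPM and lowest in CVS_S_2 at 29.0 CPM. Of the 9 monocyte list genes above the minimum 5 were higher, 1 lower and 3 neither (14.0% higher and 11.4% lower over all genes). *Treml2* was the lower one, at 0.213, and *Ly6c2* was at 1.44, or 0.509 without YD_C_2. *Fn1*, *Ace* and *Cx3cr1*, genes of circulating monocytes, were at 2.73-fold, 8.83-fold and 3.58-fold over all members. They were higher in 8, 11 and 9 of 16 samples. *Cx3cr1* was at 1.51-fold with 5 marker UMIs, and in members with 10 or more it stood at 2.69 CPM and *Fn1* at 29.6 CPM. *Ace* went from 405 CPM in members with 3 to 4 marker UMIs to 2.69 CPM in those with 10 or more. *Colec12*, a collectin of the marginal zone list, was at 9.86-fold in members and higher still in the monocyte-gated cells, 611 against 321 CPM.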
